A study of Mus musculus with 70 samples.

Results

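The transcripts described here are 10 genes of the interleukin-6 (IL-6) family and its STAT3 feedback loop, out of 21154 gene symbols on the array. They were taken as all non-control probes whose transcript belongs to a member: the ligands Il6, Lif and Il11, the receptor subunits Il6ra, Il6st and Osmr, the transcription factor Stat3, and its targets Socs3, Bcl3 and Pim1. No measured value was used to match probes to members, but the members were chosen with earlier results of these data known. The cells were RENCA, a renal adenocarcinoma line of BALB/c mice with wild-type Vhl, infected with a lentiviral vector for green fluorescent protein (GFP-RENCA). They were passaged 6 times in female BALB/c mice that were 6 weeks old, and single-colour arrays were hybridised with Cy5-labelled RNA from the cells before passage (P0) and after passages P1 to P6. In the kidney group (KPT) the cells were placed under the renal capsule and taken from the kidney tumor, in the tail group (T-LM) they were injected into the tail vein and taken from lung metastases, and in the lung group (K-LM) they were placed under the renal capsule and taken from lung metastases. By the study's methods the recovered cells were digested from the tissue and kept in culture until GFP-negative cells were gone before the next implantation, while the labels describe homogenised samples. All groups descend from the same GFP-RENCA line, P0 cells never having been in a mouse.

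There were 2 RNA samples of P0 cells. In passage order from P1 to P6, KPT held 5, 2, 2, 3, 5 and 5 samples, T-LM held 5, 2, 3, 4, 6 and 4, and K-LM held 1, 1, 5, 3, 4 and 3, which gives 65 in all on 70 arrays. The 5 repeat arrays (of KPT P6 replicates 1, 2 and 4 and of both P0 samples) and all 3 K-LM P6 arrays lay on 1 slide that was scanned later and with another version of the scanner software, called the late slide here. On each array 26.7% to 56% of the probes passed the scanner's background test. The labels do not say that replicates came from separate mice, so the p-values measure the spread between these samples. As to the renal epithelial label, the keratins Krt8 and Krt18 and the kidney factor Pax8 were above background in all 65 samples and Krt19 in 64. Cdh16 was above background in 21, Cdh1 in 7, Epcam in 5, Lhx1 in 2 and Pax2 in 0. The Cdh1 samples included 4 of T-LM P6 and 0 of P0, KPT P6 or K-LM P6.

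IL-6 family cytokines bind a receptor subunit of their own on the cell surface and then share the signal-transducing subunit gp130, the product of Il6st. gp130 activates Janus kinases, which phosphorylate STAT3, and STAT3 enters the nucleus and switches on genes that include its own brake Socs3, the IκB-like coactivator Bcl3 and the survival kinase Pim1. The pathway is known for growth and inflammation in tumors of many organs, and in the liver for the acute-phase response. Il6, Lif and Il11 themselves are classical targets of NF-κB and AP-1.

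The sequence before the transcription start is shown for the 2 ligands that varied most and for the STAT3 brake. Their levels were positively correlated over the 65 samples, although in K-LM P6 Il11 was below background while Socs3 was higher than at P0. The sequences are from RefSeq (GRCm38.p6), 250 bases that end just before the start, 5′ to 3′ on the strand of the gene. Capitals mark matches on either strand to a STAT motif (TTCNNNGAA), an AP-1 motif (TGANTCA) or the NF-κB consensus.
Il6, chr5:30012864-30013113, plus strand: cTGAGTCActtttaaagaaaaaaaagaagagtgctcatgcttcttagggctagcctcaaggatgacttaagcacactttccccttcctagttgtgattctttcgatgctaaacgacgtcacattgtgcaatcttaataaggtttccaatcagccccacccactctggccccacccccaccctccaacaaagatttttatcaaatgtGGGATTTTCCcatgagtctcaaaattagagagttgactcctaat
Il11, chr7:4778142-4778391, minus strand: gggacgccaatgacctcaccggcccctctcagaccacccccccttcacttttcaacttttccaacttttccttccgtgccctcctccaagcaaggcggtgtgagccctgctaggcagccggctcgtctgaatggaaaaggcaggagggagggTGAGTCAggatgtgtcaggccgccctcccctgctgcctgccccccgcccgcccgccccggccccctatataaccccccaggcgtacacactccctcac
Socs3, chr11:117969367-117969616, minus strand: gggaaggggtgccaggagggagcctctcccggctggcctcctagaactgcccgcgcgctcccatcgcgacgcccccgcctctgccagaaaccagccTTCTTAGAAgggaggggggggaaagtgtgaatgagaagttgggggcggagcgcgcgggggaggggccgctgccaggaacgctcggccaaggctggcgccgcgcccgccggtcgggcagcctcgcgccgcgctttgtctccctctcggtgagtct
The Il6 window held an AP-1 match that starts 249 bases before the start and an NF-κB match that starts 44 bases before it. The Il11 window, the second of 2 listed starts, held an AP-1 match 98 bases before its start, and the first held none of the 3 motifs. The Socs3 window held a STAT match 154 bases before its start. Over the 12 windows of the 10 members, the STAT motif occurred in 1 (Socs3), the AP-1 motif in 3 (Il6, Lif and Il11) and the NF-κB consensus in 2 (Il6 and Lif). Among 32841 windows of the same length, 7.02% held the STAT motif, 6.75% the AP-1 motif and 7.25% the NF-κB consensus. These matches are letters in a window and were not tested for binding.

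Levels are given as log2 of the processed signal of the probe minus the 75th percentile of the array, so that 0 is as bright as that percentile of commonly detected probes. They compare samples for the same gene and not 1 gene with another. The members differed in how far they varied. Over the 65 samples, the SD of the Il6 level was 3.21, rank 10 among 11911 genes ordered by SD, against a median of 0.448 over these genes. Il11 had an SD of 2.26 (rank 107), Osmr of 1.44 (rank 526), Socs3 of 1.28 (rank 686) and Bcl3 of 1.01 (rank 1114). The SDs of Il6ra (0.812, rank 1668), Pim1 (0.583, rank 3506) and Stat3 (0.557, rank 3906) were smaller and still above that median, and only the shared subunit Il6st was below it, at 0.356 (rank 8389). Il6st, Il6ra, Stat3, Socs3, Bcl3 and Pim1 were above background in all 65 samples, Osmr in 63, Il6 in 45, Il11 in 38 and Lif in 7. A second, dim Stat3 probe was above background in 14 samples.

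**Figure D1:**
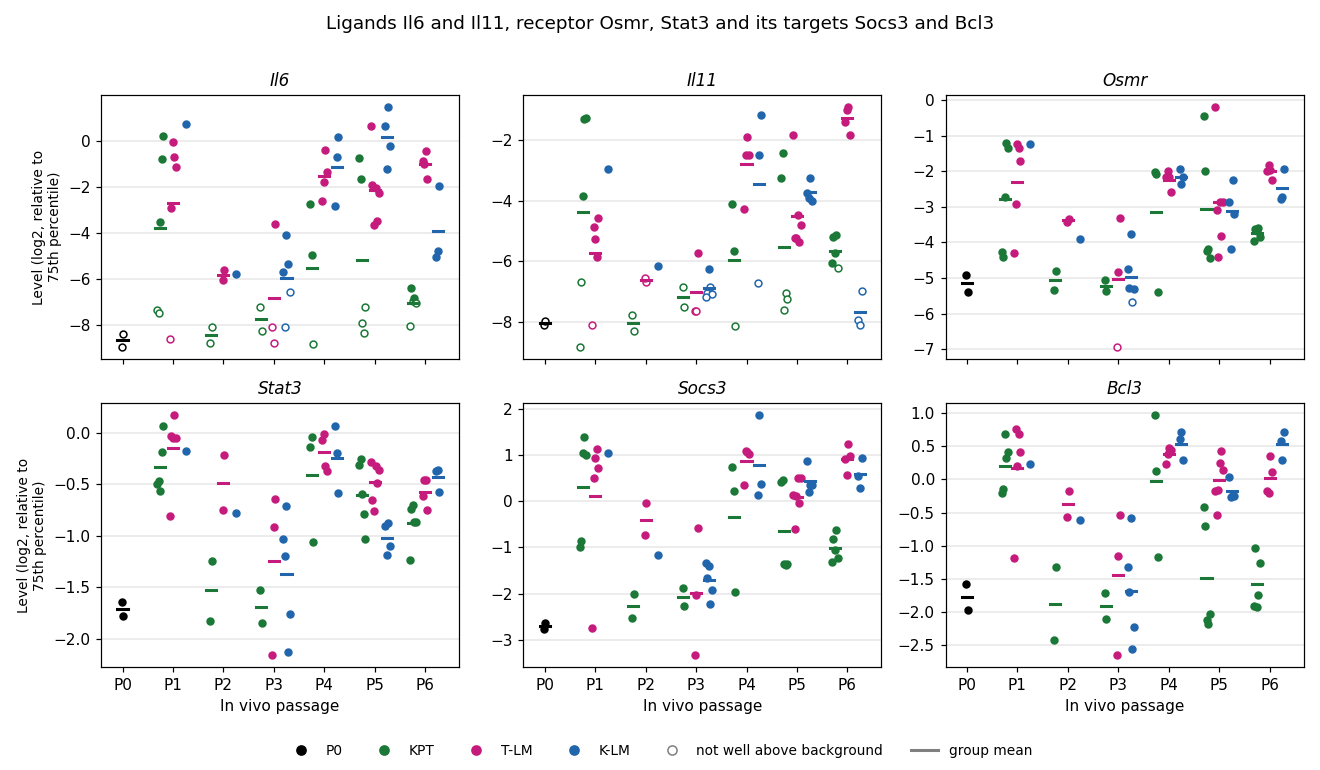
Level of Il6, Il11, Osmr, Stat3, Socs3 and Bcl3 (y axis, log2 relative to the 75th percentile of the array) in each RNA sample by passage (x axis). Each point is 1 RNA sample, colours are routes, open points were not well above background, and bars are group means. Il6 lay at -8.67 on average at P0 and at -1 in T-LM P6, with wide spread inside KPT P1, P4 and P5.

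Il6, the founding ligand of the family, was not above background in either P0 sample, at -8.96 and -8.38. In KPT P6 it stood at -8.04, -6.40, -6.98, -6.82 and -7.05, above background in replicate 2, on 1 of the 2 arrays of replicate 4 and in none of the others. In T-LM P6 it stood at -0.88, -1.01, -0.47 and -1.65. All 4 T-LM P6 samples were thus far above both P0 and KPT P6, with no overlap. The 3 K-LM P6 samples were lower and less even, at -5.03, -4.81 and -1.98, but above background in each and higher than every P0 and KPT P6 sample. Between P0 and P6, Il6 rose at least 50.7-fold in T-LM (fitted log2 change 7.02 ± 1.1 SE, limma adjusted p = 0.000245) and at least 6.61-fold in K-LM (4.99 ± 1.0, adjusted p = 0.00277), the latter lost in 5 of 16 other ways of processing. Here and below, the other ways include fits with 1 RNA sample left out. The K-LM call was lost without either P0 sample and without K-LM P6 replicate 3. In KPT the fitted change was 0.96 ± 1.8 (adjusted p = 0.845). These lower bounds set the dim group at the lowest signal that passes background on its arrays.

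The level of Il6 did not move steadily with passage in any route. KPT P1 split, with replicates 1 and 2 at -7.33 and -7.47, both below background, and replicates 3, 4 and 5 at -3.54, -0.80 and 0.18. KPT P2 and P3 samples all lay below background, between -8.78 and -7.20. KPT P4 spanned -8.82 to -2.76 and KPT P5 spanned -8.37 to -0.76, so that samples of 1 route and passage differed by most of the range of the whole series. In T-LM the group means ran from -2.70 (SD 3.48, n = 5) at P1 through -5.83 (SD 0.305, n = 2) at P2 and -6.83 (SD 2.81, n = 3) at P3 to -1.55 (SD 0.915, n = 4) at P4, -2.14 (SD 1.55, n = 6) at P5 and -1 (SD 0.487, n = 4) at P6. In K-LM the highest levels came at P5, with a mean of 0.15 (SD 1.16, n = 4), and the single P1 sample stood at 0.71. By group mean the order ran from K-LM P1 and K-LM P5 through T-LM P6, K-LM P4 and T-LM P4, whose ranges overlap from K-LM P5 onward and of which the 1 K-LM P1 sample lies inside the K-LM P5 range, down to KPT P3, KPT P2 and P0, which were all below background.

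Il11, a ligand that signals through its own α subunit and gp130, was also below background at P0, at -8.10 and -7.98. It stood at -1.39, -1.02, -0.91 and -1.83 in T-LM P6, the highest group mean of the series at -1.29. In K-LM P6 it was not above background in any sample, at -7.96, -8.11 and -7.00. KPT P6 lay between, at -6.05, -5.22, -5.73, -5.15 and -6.22, above background in all but replicate 5 (in replicate 1 on 1 of its 2 arrays). The 3 routes therefore did not overlap at P6 for this gene. Il11 rose at least 41.6-fold from P0 to P6 in T-LM (6.66 ± 0.80 SE, limma adjusted p = 8.1e-06). In K-LM P0 and P6 were both below background, and no fold is given. In earlier K-LM passages Il11 stood at -6.73, -2.51 and -1.17 in P4, the first of them not above background, and between -4.00 and -3.26 in P5.

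Lif, the leukemia inhibitory factor, was above background in only 7 samples of the series, so that most of its values are bounds. These samples were spread over groups, with 1 each in KPT P1, KPT P4, T-LM P1, T-LM P6, K-LM P1, K-LM P4 and K-LM P5. The highest level, -4.93, was in T-LM P1 replicate 2. Lif had too few arrays above background to be tested in 7 of the 13 comparisons and was not called in the others.

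Among the receptors, Osmr, the subunit for oncostatin M, varied and the other subunits did so less. Osmr stood at -4.92 and -5.38 at P0 and at -1.98, -1.83, -1.95 and -2.24 in T-LM P6. In K-LM P6 it stood at -2.77, -2.71 and -1.93, and in KPT P6 between -3.95 and -3.60. All P6 samples were thus above both P0 samples, and both lung routes were above KPT. From P0 to P6 it rose 6.01-fold in K-LM (2.59 ± 0.45, limma adjusted p = 0.000432). In T-LM the fitted change was larger but less certain, 3.22 ± 0.85 (adjusted p = 0.0155), and missed the threshold of 0.01, as did KPT with 1.42 ± 0.95 (adjusted p = 0.478). The spread inside passages was again wide, from -4.42 to -1.21 in KPT P1 and from -4.45 to -0.44 in KPT P5.

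Il6ra, the ligand-binding subunit for IL-6, was called lower in the tail route. It stood at 1.20 and 0.15 at P0 and at -0.89, -1.40, -0.54 and -0.83 in T-LM P6, all below both P0 samples. It fell 3.16-fold from P0 to P6 in T-LM (-1.66 ± 0.40, limma adjusted p = 0.00889), a call lost in 8 of 15 other ways of processing. Among these were the fits without P0 replicate 1 and without any 1 of the T-LM P6 samples. K-LM P6 lay at 0.40, 0.72 and 0.03 and overlapped P0, with a fitted change of -0.34 ± 0.45 (adjusted p = 0.769). The lowest groups were K-LM P5, at a mean of -1.50 (SD 0.694), and K-LM P3, at -1.43 (SD 0.621), and T-LM P1 was the highest at 0.72 (SD 0.867). Over the 65 samples, the Il6ra level had a Pearson correlation of 0.70 with an index of RNA integrity, the mean level of 18 long mRNAs minus that of 82 ribosomal protein mRNAs, and the part of this index in the Il6ra differences was not tested beyond the fit with the index as a covariate. One late P0 array was missing for Il6ra and was dropped from the K-LM and P6 fits.

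Il6st, the shared gp130 subunit, was the steadiest member. Its level ran from -2.49 to -0.54 over all samples and its group means from -2.14 in K-LM P5 to -1.36 in K-LM P4 and KPT P4. It was not called from P0 to P6 in any route, with fitted changes of 0.53 ± 0.24 in K-LM, 0.59 ± 0.24 in KPT and 0.06 ± 0.33 in T-LM (limma adjusted p = 0.217, 0.187 and 0.955).

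Stat3, the transcription factor that carries the signal, was lowest at P0, at -1.64 and -1.78. In K-LM P6 it stood at -0.37, -0.36 and -0.57, in T-LM P6 at -0.61, -0.46, -0.46 and -0.75, and in KPT P6 between -1.23 and -0.70. Every P6 sample was thus above both P0 samples. Stat3 rose 2.61-fold from P0 to P6 in K-LM (1.39 ± 0.29, limma adjusted p = 0.00287). The fitted changes of 1.08 ± 0.30 in T-LM (adjusted p = 0.0197) and 0.85 ± 0.28 in KPT (adjusted p = 0.086) missed the threshold. The group means formed a narrow range, from -1.71 at P0 to -0.15 in T-LM P1. A second and dimmer Stat3 probe was not called for the K-LM rise from P0 to P6 (1.06 ± 0.35, adjusted p = 0.0646). It also missed the threshold in 3 other comparisons where the first probe was called, namely KPT from P0 to P1 (1.01 ± 0.43, adjusted p = 0.138), T-LM from P0 to P1 (1.41 ± 0.42, adjusted p = 0.0395) and K-LM against KPT at P6 (0.82 ± 0.25, adjusted p = 0.024). From P3 to P6 in K-LM both probes were called (adjusted p = 0.00526 for the second). The second probe was not above background in P0, KPT P6 or K-LM P3, so its fitted changes are not measured folds.

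Socs3, the inhibitor that binds gp130 and shuts off Janus kinases, was called higher from P0 to P6 in T-LM and K-LM under all 15 and 16 other ways of processing. It stood at -2.76 and -2.64 at P0, at 0.91, 0.57, 1.23 and 0.97 in T-LM P6 and at 0.54, 0.28 and 0.94 in K-LM P6. KPT P6 lay between, at -1.31, -0.83, -1.06, -0.62 and -1.23. The lung routes overlapped each other and neither overlapped KPT P6 or P0. From P0 to P6 Socs3 rose 12.2-fold in T-LM (3.61 ± 0.49, limma adjusted p = 3.91e-05) and 9.93-fold in K-LM (3.31 ± 0.37, adjusted p = 2.17e-06). The KPT change was 1.70 ± 0.63 (adjusted p = 0.135), and 1.75 ± 0.23 (adjusted p = 0.00109) when only the arrays of the late slide were used. SOCS3 and BCL3 are both in a K-LM signature that the study picked on these samples, so the K-LM rises of Socs3 and Bcl3 are not independent evidence of their direction.

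The order of the Socs3 group means ran from K-LM P1 (1.04, 1 sample), T-LM P6 (0.92, SD 0.271), T-LM P4 (0.88, SD 0.364), K-LM P4 (0.79, SD 0.933) and K-LM P6 (0.59, SD 0.336) down to T-LM P3 (-1.99, SD 1.38), KPT P3 (-2.08, SD 0.271), KPT P2 (-2.27, SD 0.378) and P0 (-2.70, SD 0.0816). The ranges of the neighbours named here overlap except that KPT P2 lies above P0 by a small gap, and the 1 K-LM P1 sample lies inside the T-LM P6 range. As with Il6, the early KPT samples split, with P1 replicates 1 and 2 at -1 and -0.86 and replicates 3, 4 and 5 at 1.04, 1.38 and 1.00. In KPT P5, replicates 1 and 2 stood at 0.42 and 0.45 and replicates 3, 4 and 5 between -1.38 and -1.36. The same KPT P1 and P5 samples were low and high for Il6.

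Bcl3, a nuclear IκB protein that STAT3 and NF-κB both induce, stood at -1.58 and -1.97 at P0. It stood at -0.18, -0.20, 0.36 and 0.11 in T-LM P6 and at 0.58, 0.30 and 0.72 in K-LM P6. KPT P6 covered -1.93 to -1.04 and overlapped P0. Bcl3 rose 4.29-fold from P0 to P6 in T-LM (2.10 ± 0.39, limma adjusted p = 0.000943) and 4.37-fold in K-LM (2.13 ± 0.38, adjusted p = 0.000687), against 0.44 ± 0.55 in KPT (adjusted p = 0.755). In KPT P1 all 5 samples lay above both P0 samples, between -0.21 and 0.68.

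Pim1, the serine/threonine kinase, moved least of the targets. It stood at -5.13 and -4.47 at P0 and had its highest group mean, -2.99 (SD 0.479), in KPT P1. In P6 it lay between -4.10 and -3.81 in K-LM, -4.23 and -3.23 in T-LM and -4.50 and -4.03 in KPT. No P0 to P6 change was called, with 0.90 ± 0.30 in K-LM, 0.94 ± 0.40 in T-LM and 0.54 ± 0.31 in KPT (limma adjusted p = 0.0706, 0.159 and 0.382).

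Counted over the members, the comparison of P0 with P6 asks what 6 passages by each route left changed. In KPT 0 of 9 tested members were called by limma, where 3.88% of all 20978 probes were (3.4% higher and 0.472% lower). Of these 9, 4 had an unadjusted p under 0.05, and a fit on the P0 and P6 arrays alone called 3 (Il11, Osmr and Socs3). In T-LM 4 members were higher (Il6, Il11, Socs3 and Bcl3) and 1 lower (Il6ra) of 9 tested, where 7.31% of all probes were called (5.9% higher and 1.41% lower). In K-LM 5 members were higher (Il6, Osmr, Stat3, Socs3 and Bcl3) and 0 lower of 10 tested, where 4.78% of all probes were called (3.63% higher and 1.15% lower). The median fitted change of the tested members was 2.10 in T-LM, 1.15 in K-LM and 0.85 in KPT, beside 0.00, 0.00 and -0.01 over all probes. A probe was tested where at least 2 arrays of the fit were well above background, which Il6 and Il11 met through the groups where they were high, so these counts are a description. The 3 comparisons share the same 2 P0 samples. The K-LM count rested on them, with 1 call (Socs3) without P0 replicate 2 and 3 without P0 replicate 1, and the T-LM count was 3 without P0 replicate 1.

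On samples that did not overlap, 8 of the 10 members separated P0 from T-LM P6, where 43% of tested probes did. In the same way 7 members separated in K-LM, against 56.4%, and 7 in KPT, against 33.9%. From P3 to P6 the members that separated were 6 in KPT against 42.1%, 6 in T-LM against 23.8% and 7 in K-LM against 34.6%. From P0 to P1 they were 6 in KPT against 32.8% and 5 in T-LM against 31%, and from P1 to P6 they were 3 in KPT against 21.7% and 3 in T-LM against 20.8%. At P6, 8 members separated KPT from T-LM against 19.7%, 6 separated KPT from K-LM against 40.4% and 4 separated T-LM from K-LM against 42.8%.

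**Figure D2:**
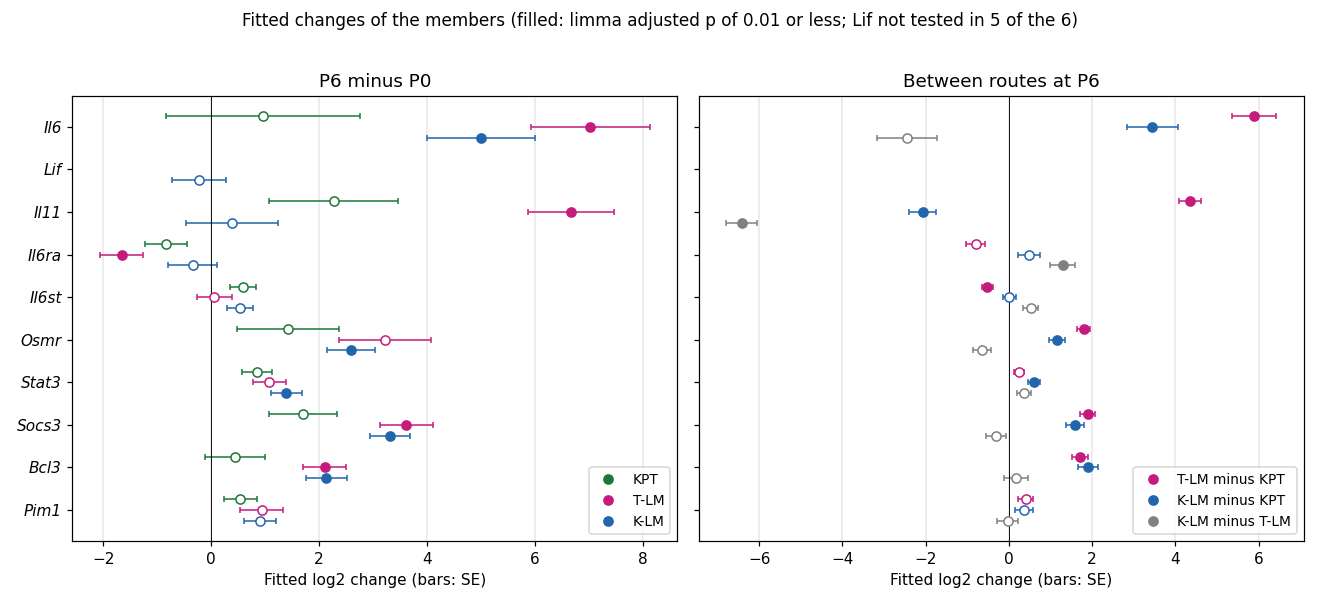
Fitted log2 changes (x axes) of each member (y axis) from P0 to P6 by route (left) and between routes at P6 (right), with bars for the SE and filled points for a limma adjusted p of 0.01 or less. In the left panel Il6 and Il11 reach 7.02 and 6.66 in T-LM, and in the right panel Il11 lies at -6.42 for K-LM minus T-LM.

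The comparison of P3 with P6 asks what changed over the last 3 passages. In KPT 0 of 9 tested members were called by limma, where 0.715% of all probes were (0.629% higher and 0.0858% lower), with 2 members at an unadjusted p under 0.05 and 2 called (Il6ra and Osmr) in a fit on P3 and P6 arrays alone. In T-LM 4 of 9 rose, where 7% of probes were called (5.62% higher and 1.38% lower). They were Il6 (5.83 ± 1.0, adjusted p = 0.000571), Il11 (5.72 ± 0.70, adjusted p = 2.06e-05), Socs3 (2.90 ± 0.43, adjusted p = 0.000159) and Bcl3 (1.47 ± 0.34, adjusted p = 0.0069). Il6 and Il11 were above background in 1 of the 3 T-LM P3 samples, so their fitted changes are not measured folds. The Bcl3 call was lost in 10 of 16 other ways of processing, with changes between 0.87 and 1.93. T-LM P3 was itself uneven, since replicate 5 had Il6 at -3.60 and Socs3 at -0.58 while replicates 2 and 3 had Il6 at -8.10 and -8.78 and Socs3 at -3.34 and -2.04.

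In K-LM 5 of 10 members rose from P3 to P6, where 3.54% of probes were called (2.37% higher and 1.17% lower). These were Socs3 (2.35 ± 0.34, limma adjusted p = 0.000202), Osmr (2.30 ± 0.41, adjusted p = 0.00139), Bcl3 (1.86 ± 0.35, adjusted p = 0.00229), Il6ra (1.80 ± 0.41, adjusted p = 0.00888) and Stat3 (1.15 ± 0.27, adjusted p = 0.00884). The index of RNA integrity moved with this contrast, from a mean of -7.75 (SD 0.899) in K-LM P3 to -5.98 (SD 0.0613) in K-LM P6, and with the index as a covariate 0 of the 5 remained called. The fitted changes were then 1.90 ± 0.38 for Socs3 (adjusted p = 0.0104), 1.47 ± 0.39 for Osmr (0.0576), 1.16 ± 0.33 for Bcl3 (0.0819), 1.10 ± 0.42 for Il6ra (0.205) and 0.52 ± 0.21 for Stat3 (0.215). Of 18 other ways of processing, 1 lost the Socs3 call, 4 each the Osmr and Bcl3 calls, 9 the Il6ra call and 10 the Stat3 call. Without K-LM P6 replicate 3 the count was 1 (Socs3), without K-LM P6 replicate 1 it was 2, and without K-LM P6 replicate 2, K-LM P3 replicate 4 or K-LM P3 replicate 5 it was 3.

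The levels at P6 allow the routes to be set against each other. From KPT to T-LM, Il6 was higher (fitted difference 5.89 ± 0.53, limma adjusted p = 3.09e-07). Only 2 of 5 KPT P6 samples had Il6 above background on any array, so no fold is given. Il11, above background in 4 of the 5, was 20.4-fold higher (4.35 ± 0.27, adjusted p = 3.96e-09), Socs3 3.74-fold (1.90 ± 0.18, adjusted p = 4.86e-07), Osmr 3.48-fold (1.80 ± 0.16, adjusted p = 3.6e-07) and Bcl3 3.28-fold (1.71 ± 0.20, adjusted p = 7.24e-06). Il6st was lower by a small amount (-0.52 ± 0.13, adjusted p = 0.0087), a call lost in 12 of 18 other ways of processing. These are 6 of 9 tested members, where 11.5% of all probes were called (6.98% higher and 4.54% lower).

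From KPT to K-LM at P6, Bcl3 was 3.70-fold higher (1.89 ± 0.24, limma adjusted p = 1.77e-05), Socs3 3.01-fold (1.59 ± 0.21, adjusted p = 2.65e-05), Osmr 2.22-fold (1.15 ± 0.19, adjusted p = 0.000242), and Stat3 1.53-fold (0.61 ± 0.14, adjusted p = 0.00268). Il6 was higher too, with no fold given for the same reason (3.45 ± 0.62, adjusted p = 0.000478). Il11 was at least 2.88-fold lower in K-LM (-2.07 ± 0.32, adjusted p = 0.000122). These are again 6 of 9 tested members, where 16.1% of all probes were called (6.25% higher and 9.81% lower). All K-LM P6 arrays lie on the late slide, so the same contrast was taken within that slide, with 3 KPT P6 arrays. There Bcl3 (2.00 ± 0.21, adjusted p = 0.000504), Socs3 (1.55 ± 0.20, adjusted p = 0.00125), Osmr (1.15 ± 0.23, adjusted p = 0.00704), Stat3 (0.65 ± 0.14, adjusted p = 0.00882) and Il11 (-2.22 ± 0.32, adjusted p = 0.0018) were called and Il6 was not (3.15 ± 0.81, adjusted p = 0.0199).

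Between the lung routes at P6, 2 of 9 tested members were called, where 11.9% of all probes were (4.18% higher and 7.7% lower). Il11 was at least 60.3-fold lower in K-LM than in T-LM (-6.42 ± 0.37, limma adjusted p = 5.53e-09). Il6ra was 2.44-fold higher in K-LM (1.29 ± 0.31, adjusted p = 0.00643), a call lost in 9 of 17 other ways of processing. Il6 was lower in all 3 K-LM samples than in all 4 T-LM samples, but the fitted difference of -2.44 ± 0.72 (adjusted p = 0.0217) missed the threshold. Without K-LM P6 replicate 3, which had the highest Il6 of its group, 4 members were called (Il6, Il11, Il6ra and Osmr), and without the term for the late slide also 4 (Il6, Il11, Il6ra and Il6st). Socs3 (-0.32 ± 0.24, adjusted p = 0.385), Bcl3 (0.17 ± 0.28, adjusted p = 0.703) and Pim1 (-0.03 ± 0.26, adjusted p = 0.95) gave no call. On the 5 RNA samples measured on both sets of arrays, the late level minus the early level ran from -1.52 to 0.44 for Il6 and from -0.33 to 0.29 for Socs3.

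The first passage was compared with P0 and P6 in KPT and T-LM, the routes with more than 1 P1 sample. In KPT 4 of 10 members rose from P0 to P1, where 4.41% of probes were called (3.27% higher and 1.13% lower). They were Pim1 (1.74 ± 0.33, limma adjusted p = 0.00209), Stat3 (1.32 ± 0.27, adjusted p = 0.00349), Bcl3 (2.29 ± 0.52, adjusted p = 0.00715) and Socs3 (3.00 ± 0.71, adjusted p = 0.00928). All 4 calls were lost without either P0 sample, and 2 (Stat3 and Pim1) were left without KPT P1 replicate 3, 4 or 5. From P1 to P6 in KPT, Bcl3 fell by 1.85 ± 0.39 (adjusted p = 0.00213) and Pim1 by 1.20 ± 0.25 (adjusted p = 0.00176), where 11.6% of probes were called (5.3% higher and 6.28% lower), and both were called under all 19 other settings.

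In T-LM Stat3 (1.49 ± 0.30, limma adjusted p = 0.0033) and Bcl3 (2.26 ± 0.45, adjusted p = 0.00324) rose from P0 to P1, where 2.56% of probes were called (2.13% higher and 0.431% lower). This group includes 1 sample, replicate 1, whose title gives neither route nor replicate. It stood apart, with Il6 at -8.63, Il11 at -8.12 and Socs3 at -2.75, all near P0, and Il6ra at 2.21, the highest level of the series. Without it 5 members were called, namely Il6 (6.81 ± 1.1, adjusted p = 0.000266), Osmr (3.43 ± 0.83, adjusted p = 0.00702), Socs3 (3.51 ± 0.47, adjusted p = 2.4e-05), Stat3 (1.66 ± 0.28, adjusted p = 0.000304) and Bcl3 (2.60 ± 0.37, adjusted p = 5.83e-05). Without either P0 sample the count was 0. From P1 to P6 in T-LM, Il11, above background in 4 of the 5 P1 samples, rose 21.9-fold (4.45 ± 0.69, adjusted p = 0.000101, and 3.85 ± 0.62 without that sample) and Il6ra fell 3.09-fold (-1.63 ± 0.38, adjusted p = 0.00428, and -1.26 ± 0.31 without it), where 9.28% of probes were called (3.83% higher and 5.45% lower). The Il6ra call was lost in 7 of 19 other ways of processing. With the RNA integrity index, which had a correlation of 0.70 with Il6ra over the 65 samples, the change was -1.11 ± 0.38 (adjusted p = 0.0558), and with the replicate number as a block -1.13 ± 0.31 (adjusted p = 0.0239).

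Across the 65 samples the levels of Il6, Il11, Osmr, Stat3, Socs3 and Bcl3 were positively correlated, some pairs more closely than others. Pearson correlations of levels were 0.87 for Il6 with Socs3, 0.83 for Il6 with Il11, 0.83 for Il6 with Osmr, 0.87 for Osmr with Socs3, 0.88 for Socs3 with Bcl3 and 0.84 for Osmr with Stat3. After the group means were taken off (63 samples in the 17 groups of more than 1), they were 0.83, 0.87, 0.87, 0.75, 0.82 and 0.72. The lowest among these genes were 0.49 for Il11 with Stat3, 0.56 for Il11 with Bcl3 and 0.60 for Il6 with Stat3. With the group means taken off these pairs had 0.37, 0.52 and 0.53. In K-LM P6 the mean level was -7.69 for Il11, below background, and 0.59 for Socs3 and 0.53 for Bcl3. Il6ra had correlations of -0.22 with Il6, -0.32 with Il11 and 0.04 with Osmr, and of -0.51, -0.59 and -0.36 after the group means were taken off. Il6st had 0.07 with Il6 and 0.26 with Socs3. Samples of a passage share culture history, slides and processing, so these values describe the series and were not tested.

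Markers listed for other cell types were followed in the same samples. The summed level of 9 fibroblast markers (Col1a1, Col1a2, Col3a1, Pdgfra, Pdgfrb, Dcn, Lum, Thy1 and Acta2) had a Pearson correlation of 0.86 with Il6, 0.80 with Il11, 0.88 with Osmr, 0.84 with Socs3, 0.71 with Stat3 and 0.66 with Bcl3, and 0.89 with Il6 and 0.74 with Socs3 after the group means were taken off. This summed level ran from -4.53 to -4.10 at P0 (2 to 5 of the 9 markers above background), 0.38 to 1.13 in KPT P6 (7 to 8), 1.93 to 3.95 in T-LM P6 (8 to 9) and 0.46 to 2.20 in K-LM P6 (7 to 8). Pdgfra and Lum were above background in 19 of the 65 samples each, and in 0 of the P0 samples. Of the other markers, Col1a2 and Col3a1 were above background in 2 P0 samples, Col1a1, Dcn and Acta2 in 1, and Pdgfrb and Thy1 in 0. In the KPT P1 samples with low Il6 the summed fibroblast level was -0.73 and -0.74, and in those with higher Il6 it was 1.72, 4.11 and 3.65. Its part in the differences of the members between passages was not tested, and in bulk RNA fewer cells of a type and less RNA per cell cannot be told apart. The study reported expression changes in P6 cells that resemble an epithelial-mesenchymal transition. Expression of these markers by the tumor cells and by other cells cannot be told apart here. The summed fibroblast level of K-LM P6 replicates 1 and 2, at 0.85 and 0.46, lay inside the KPT P6 range. Replicate 3, at 2.20, lay above it and had the highest Il6 and Socs3 of its group, at -1.98 and 0.94. All 3 replicates had Il6, Osmr, Stat3, Socs3 and Bcl3 above, and Il11 below, the levels of all 5 KPT P6 samples.

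Of the other lists, the renal epithelial tumour markers had correlations of -0.42 with Il6, -0.40 with Socs3 and -0.51 with Bcl3. The endothelial markers had -0.07 with Il6, -0.30 with Socs3, -0.41 with Stat3 and -0.53 with Il6ra, whose correlation with the fibroblast list was -0.17. The summed level of 10 macrophage and leukocyte markers had a correlation of 0.04 with Il6, 0.20 with Socs3, 0.37 with Stat3 and 0.41 with Pim1, and ran from 1.37 to 1.58 at P0 (5 markers above background), 1.88 to 2.33 in KPT P6 (6 to 8), 1.90 to 2.12 in T-LM P6 (7 to 10) and 1.52 to 2.08 in K-LM P6 (5). Signals were summed on the linear scale, and Cd68 had a median level of 1.71 against -2.01 or lower for each of the others. The sum and its correlations are thus weighted to Cd68. The defining leukocyte marker Ptprc was above background in 0 P0, 4 KPT P6, 2 T-LM P6 and 0 K-LM P6 samples. For Tyrobp these counts were 0, 4, 4 and 0, and for Fcer1g 0, 5, 4 and 0. For Adgre1 and Laptm5 they were 0, 0, 2 and 0 each. Cd68, Lyz2, Csf1r, Itgam and Cd14 were above background in all P0 and P6 samples. The summed level of 7 lung epithelium markers was -2.53 to -0.36 in T-LM P6 (3 to 5 above background), -4.74 to -4.44 in KPT P6 (1 to 2) and -3.82 to -3.22 in K-LM P6 (1). The surfactant gene Sftpc was above background in all 4 T-LM P6 samples, 1 KPT P6 and 0 K-LM P6 samples. The summed level of 7 endothelial markers lay between -1.81 and -0.86 in all P6 samples. Kdr was above background in all 65 samples, Vwf in 16, Pecam1 in 5, Cdh5 in 3, Emcn in 2, and Tek and Tie1 in 0. Kdr had a median of -0.91 against -7.45 or lower for each of the others. This sum and its correlations therefore describe mainly Kdr. The part of these cell types in the members' levels was not tested.

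**Figure D3:**
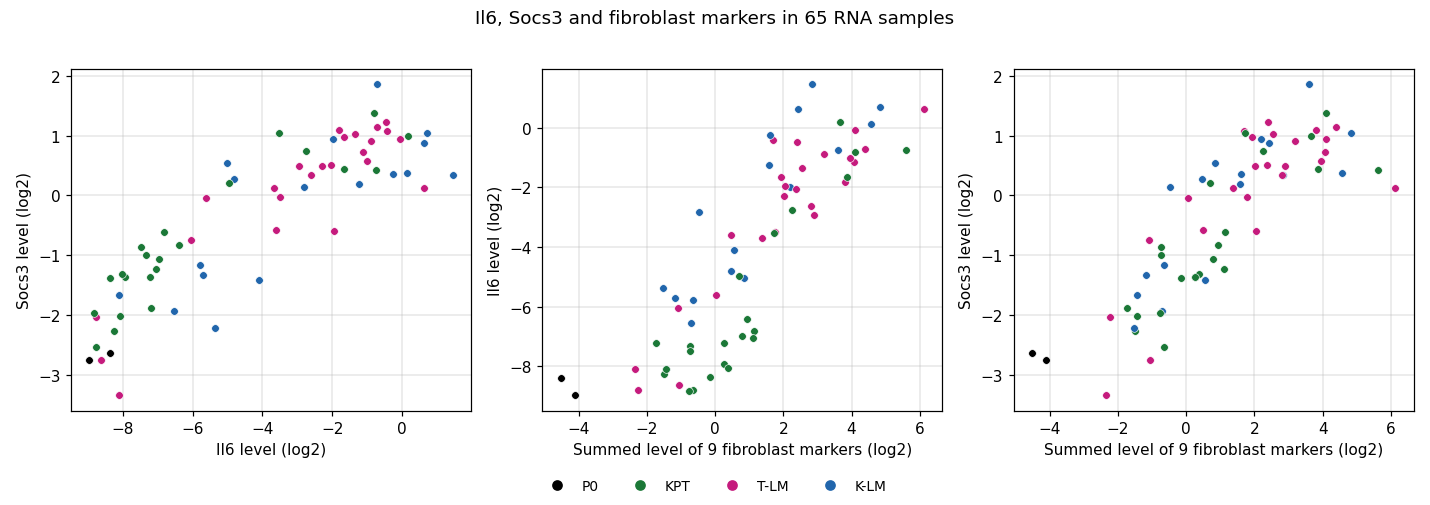
Socs3 against Il6 level (left), and Il6 (middle) and Socs3 (right) against the summed level of 9 fibroblast markers, all log2, with each point 1 of the 65 RNA samples and routes in colour. The Pearson correlations are 0.87, 0.86 and 0.84, and the P0 samples sit at the low end of all 3 panels.

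The genes whose pattern over the 65 samples was most like that of a member were named by the highest Pearson correlation among 11911 genes. For Il6 they were Ereg, an epidermal growth factor family ligand (0.97), Cd302 (0.95) and Gypc (0.95). For Il11 they were the chemokine Cxcl14 (0.94), the transcription factor Sox4 (0.89) and Inava (0.89). For Osmr they were the collagens Col1a1 and Col1a2 (0.92 each) and fibronectin, Fn1 (0.90). For Socs3 they were the kinase Nek6 (0.92), the lactate transporter Slc16a3 (0.90) and Fn1 (0.90). For Bcl3 they were Susd6 (0.91), the transcriptional regulator Sbno2 (0.90) and Socs3 itself (0.88). Lif, mostly below background, reached 0.80 with Ptp4a3.

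Other genes of the pathway were read from 7 lists of 92 genes in all. From P0 to P6, 2 were higher and 2 lower of 73 tested in KPT, 11 higher and 1 lower of 77 in T-LM, and 15 higher and 0 lower of 77 in K-LM. Their median fitted changes were 0.00, 0.42 and 0.42, beside -0.01, 0.00 and 0.00 over all probes. At P6, 25 were higher and 1 lower in T-LM than in KPT, and 24 higher and 0 lower in K-LM than in KPT. These counts are set against the same percentages of all probes as above.

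Ebi3, the shared subunit of the heterodimeric cytokine IL-27, was at least 1.13-fold higher in T-LM than in KPT at P6 (limma adjusted p = 0.00365). Of 5 other receptors, only Il11ra1, the α subunit for IL-11, was bright enough to test, and it gave no call, with -0.46 ± 0.34 from P0 to P6 in T-LM (adjusted p = 0.486).

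Among Janus kinases and other STATs, Jak3, dim at P0 with a mean level of -7.68, rose from P0 to P6 in T-LM (1.97 ± 0.33, limma adjusted p = 0.000426) and K-LM (1.58 ± 0.33, adjusted p = 0.00284), the interferon mediator Stat2 rose in K-LM (1.95 ± 0.26, adjusted p = 2.05e-05) and Stat5b fell in T-LM (-1.44 ± 0.25, adjusted p = 0.000503). These were the only calls among the 8 and 9 genes tested in the 2 routes, and KPT had 0 of 8. Among 14 tested brakes other than Socs3, T-LM had 3 higher and K-LM 2 higher. Cish, a suppressor induced by STAT5, rose at least 4.94-fold in T-LM and at least 2.53-fold in K-LM (adjusted p = 0.00128 and 0.00182), and Socs1 rose at least 1.11-fold and 1.07-fold (adjusted p = 0.00759 and 0.00755). Socs2 rose in T-LM (1.86 ± 0.40, adjusted p = 0.00364).

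Among 20 other STAT3 target genes, the immediate-early factor Fos rose from P0 to P6 in KPT (2.43 ± 0.50, limma adjusted p = 0.00517) and T-LM (2.54 ± 0.59, adjusted p = 0.00639), and the Pim1 relative Pim3 rose in K-LM (1.79 ± 0.24, adjusted p = 2.36e-05). The cell cycle regulator Ccnd1 rose in all 3 routes, KPT by 2.38 ± 0.34 (adjusted p = 0.000192), T-LM by 2.13 ± 0.50 (adjusted p = 0.00648) and K-LM by 2.96 ± 0.57 (adjusted p = 0.00126). At P6 the list had 7 genes higher in T-LM and 6 in K-LM than in KPT, and 0 lower in either, with the CCAAT-binding factor Cebpd at 1.63 ± 0.25 and 1.52 ± 0.29 (adjusted p = 0.000112 and 0.00086).

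The acute-phase STAT3 targets, secreted proteins of the inflammatory response, separated the lung routes where Socs3 and Bcl3 did not. From P0 to P6, 7 of 10 tested rose in K-LM with a median fitted change of 3.47, 2 of 11 in T-LM with a median of 0.85, and in KPT 0 of 8 rose and 1, the complement gene C3, fell (-2.44 ± 0.35, limma adjusted p = 0.000193). At P6 all 10 tested genes were higher in K-LM than in KPT and 8 of 10 were higher in T-LM than in KPT. Between the lung routes 7 of 10 were higher in K-LM, with the protease inhibitor Serpina3n at least 44-fold (7.16 ± 0.48, adjusted p = 2.44e-08) and Saa2 at least 6.17-fold (4.91 ± 0.41, adjusted p = 2.49e-07). Saa1 and Saa2 are near-identical genes whose probes could share signal. SAA2, SAA1, LRG1, CFB and SERPINA3 are also in the K-LM signature that the study chose on these samples, and SERPINA3 is in its T-LM signature too.

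Of 18 tested genes of the NF-κB system, 0 were called from P0 to P6 in KPT and T-LM, and 1, the chemokine Ccl2, rose in K-LM (2.39 ± 0.55, limma adjusted p = 0.00697). At P6, 7 were higher in T-LM than in KPT, led by the cytokines Il1b (at least 7.48-fold) and Il1a (at least 1.33-fold) with adjusted p = 1.35e-08 and 1.09e-05. In K-LM 5 were higher than in KPT, led by the IκB family member Nfkbiz (1.75 ± 0.37, adjusted p = 0.0021) and Nfkbia (1.70 ± 0.23, adjusted p = 4.93e-05). Il1b was at least 9.37-fold lower in K-LM than in T-LM (adjusted p = 1.35e-06), in the direction of Il11. From P1 to P6 in KPT, where Bcl3 and Pim1 fell, 9 of these 18 genes fell and 0 rose. In the same contrast 8 of 10 acute-phase targets and 4 of 19 other STAT3 target genes fell. Over all lists 23 of 75 tested genes fell and 0 rose, where 6.28% of all probes were called lower.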

How the data were processed

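Agilent single-colour arrays (Cy5) of 65 RNA samples were read from the deposited scanner files, whose intensity values the authors obtained with Feature Extraction (background-subtracted within the array, not scaled between arrays). The deposited log2 values of the same arrays differed by at most 0.105 from log2 raw median signals after quantile normalization, and were used as an alternative. For the main values the processed signal was taken to log2 and each array was centred on its 75th percentile, computed over the probes that passed background on all 70 arrays. Control spots and outlier spots were left out, spots of a probe were averaged, and each gene was read from its brightest probe.

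Groups were taken from the labels. Differences were fitted with limma 3.58.1 (R 4.3.3, statmod 1.5.0), with Benjamini-Hochberg adjustment over all probes with at least 2 arrays well above background, and called at an adjusted p of 0.01 or less. P0 to P6 and P3 to P6 fits held P0 with passages P2 to P6 of the route, and P1 fits added P1. Only early slides entered the KPT and T-LM fits. The K-LM and P6 fits used all slides, a batch term (late or early) and a random block for arrays that repeat an RNA. On the late slide, slide, scan day and software version cannot be told apart. The number of arrays limits the precision.

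All 10 members were named in every comparison, with at most 3 genes per pathway list, direction and comparison by fitted change, and the 3 genes of highest correlation with a member. The members and lists were chosen with earlier results of these data known. Alternatives covered scaling, background correction, filter, covariate, replicate block, samples in the fit, slide and each replicate left out. The deviations of same-numbered samples were correlated, without different-numbered samples beside them, so whether replicate numbers pair the samples was not settled. The fits were tested on simulated data. 1 pathway gene is not reported here.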

Additional observations from a re-analysis of the deposited data

Results flagged for a closer look

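In 10 of 90 groups of a member and a set of 4 to 6 samples, 1 sample stood apart from the others by Dixon's criterion, which chance gives in about 1 in 20 groups. In T-LM P1, replicate 1, the sample of unclear title, had Il6ra at 2.21 (others -0.01 to 0.61), Stat3 at -0.81 (others -0.05 to 0.17) and Socs3 at -2.75 (others 0.50 to 1.14), and replicate 2 had Pim1 at -2.58 (others -3.98 to -3.64). In T-LM P5, replicate 1 had Il11 at -1.85 (others -5.38 to -4.48), Osmr at -0.19 (others -4.41 to -2.85) and Il6ra at -1.95 (others -0.56 to -0.33). The remaining samples were T-LM P4 replicate 1 for Socs3 at 0.34 (others 1.03 to 1.09), T-LM P6 replicate 4 for Il6st at -2.28 (others -1.94 to -1.91) and K-LM P5 replicate 2 for Bcl3 at 0.03 (others -0.26 to -0.24).

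At P6 the routes differed in the limma fit for 14 combinations of a member and a pair of routes. T-LM minus KPT was 5.89 for Il6, 4.35 for Il11, 1.90 for Socs3, 1.80 for Osmr, 1.71 for Bcl3 and -0.52 for Il6st. K-LM minus KPT was 3.45 for Il6, 1.89 for Bcl3, 1.59 for Socs3, 1.15 for Osmr, 0.61 for Stat3 and -2.07 for Il11. K-LM minus T-LM was -6.42 for Il11 and 1.29 for Il6ra.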

How the results depend on the processing

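Of 738 changes of called members under other settings, 595 kept their direction and call, 143 kept the direction and lost the call, and 0 reversed. Over the 13 comparisons 43 calls of members became 32 without a filter, 33 with the RNA integrity index and 31 in 1 model of all groups. The causes were not tested.

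Counts that moved by over 1.5 times were as follows. With the compared groups alone, KPT gave 3 calls from P0 to P6, 2 from P3 to P6 and 1 from P0 to P1, T-LM gave 1 from P3 to P6, 0 from P0 to P1 and 1 from P1 to P6, and T-LM to K-LM at P6 gave 1. The late slide alone gave 3 for KPT from P0 to P6. In 1 model of all groups the count was 3 for K-LM from P0 to P6, 3 for KPT to T-LM, 1 for KPT to K-LM and 1 for T-LM to K-LM at P6. Without a filter it was 3 for K-LM from P3 to P6, 1 for KPT and 1 for T-LM from P0 to P1, and 1 for T-LM to K-LM at P6. With the index it was 0 for K-LM from P3 to P6, 1 for KPT and 1 for T-LM from P0 to P1, and 1 for T-LM from P1 to P6. With the percentile over all probes it was 1 for T-LM from P0 to P1 and 1 from P1 to P6. Without the unclear sample T-LM gave 5 from P0 to P1, and without the batch term T-LM to K-LM at P6 gave 4.

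With the replicate number as a block, the 43 calls became 32, with 1 for K-LM from P3 to P6, 0 for KPT and 4 for T-LM from P0 to P1, 1 for T-LM from P1 to P6 and 1 for T-LM to K-LM at P6. Correlations of the deviations of same-numbered samples ran from -0.51 to 0.39. Different-numbered samples were not set beside them, so these values do not decide whether the samples are paired.

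With 1 replicate left out, counts from P0 to P6 ran from 0 to 0 in KPT, 3 to 4 in T-LM and 1 to 4 in K-LM, and from P3 to P6 from 0 to 0, 3 to 5 and 1 to 5. From P0 to P1 they ran from 0 to 4 in KPT and 0 to 5 in T-LM, from P1 to P6 from 2 to 3 and 1 to 2, and at P6 from 5 to 6, 5 to 6 and 1 to 4 for KPT to T-LM, KPT to K-LM and T-LM to K-LM. Lif, Il6 and Il11 lie below background in many samples, where a fold is only a bound or is not given.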
